A study of Rattus norvegicus with 36 samples.

Results

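The RNA of rat skeletal muscle that was bound to polyribosomes 1 h after resisted contractions was compared with that of muscle whose labels name no contractions. Of the 36 one-colour oligonucleotide arrays in the series, 8 belong to this comparison, and they were chosen by their titles. Exercised muscle gave 4 arrays of polyribosomal (polysomal) RNA under numbers 1 and 2, with 2 arrays each, called 1aA, 1bA, 2aA and 2bA. The control also had 2 numbers with 2 arrays each, and the same array names. Its titles say 1hr and polysome, while its description gives muscle collected at 1 h and names no polysomes. The muscle is labelled only "ta", and strain, sex, age and the mode of contraction are not given in the sources used here. Whether a number stands for an animal, and whether its 2 arrays came from separate RNA, is not given either. A p-value or SE here reflects the spread between numbers pooled over all 6 groups of the series, not these 8 arrays alone. That spread is possibly a technical one.

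A transcript that carries several ribosomes sediments with polysomes, so its polysomal level is commonly read as its use in translation. Muscle that has contracted hard is known to induce immediate early genes such as Fos and Egr1 within minutes to hours, through transcription factors already present in the cell. Heat shock genes are switched on by heat shock factor when proteins unfold, and stretch of the muscle fibre is known to raise ankyrin repeat proteins and LIM proteins of the Z disc. Polysomal arrays measure both the amount of a transcript and its loading, and they cannot tell them apart. Nor can bulk muscle tell fewer cells of a type from less RNA per cell.

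Promoters of 3 immediate early and heat shock genes are shown because they hold motifs of factors known to drive such genes; of the 7 windows searched, 3 held none of them. Of the 10 leading immediate early and heat shock genes, 7 have a window of 250 bases before to 50 bases after the start in RefSeq (rat assembly GRCr8). Both strands were searched for the heat shock motifs GAANNTTC and TTCNNGAA, the cyclic AMP element TGACGTCA, the AP-1 site TGANTCA, the Egr site GCGNGGGCG and the CArG box, which serum response factor binds. The window of Egr1, a zinc finger transcription factor, is chr18:26736828-26737127 on the plus strand. That of Dnajb1, a co-chaperone of Hsp70, is chr19:41431092-41431391 on the minus strand, and that of the zinc finger factor Klf6 is chr17:69458429-69458728 on the minus strand. They are printed 5′ to 3′ with the matches in capitals:
Egr1: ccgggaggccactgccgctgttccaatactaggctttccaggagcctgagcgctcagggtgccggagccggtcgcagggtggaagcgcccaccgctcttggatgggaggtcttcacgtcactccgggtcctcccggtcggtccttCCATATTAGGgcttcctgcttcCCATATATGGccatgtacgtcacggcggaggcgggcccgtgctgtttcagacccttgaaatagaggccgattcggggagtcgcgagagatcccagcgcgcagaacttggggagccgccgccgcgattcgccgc
Dnajb1: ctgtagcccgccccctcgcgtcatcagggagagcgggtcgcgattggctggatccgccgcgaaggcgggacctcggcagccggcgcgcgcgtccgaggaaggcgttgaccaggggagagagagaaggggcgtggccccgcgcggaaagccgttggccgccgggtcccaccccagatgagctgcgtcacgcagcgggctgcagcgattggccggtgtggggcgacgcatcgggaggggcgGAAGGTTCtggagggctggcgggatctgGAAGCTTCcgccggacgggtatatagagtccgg
Klf6: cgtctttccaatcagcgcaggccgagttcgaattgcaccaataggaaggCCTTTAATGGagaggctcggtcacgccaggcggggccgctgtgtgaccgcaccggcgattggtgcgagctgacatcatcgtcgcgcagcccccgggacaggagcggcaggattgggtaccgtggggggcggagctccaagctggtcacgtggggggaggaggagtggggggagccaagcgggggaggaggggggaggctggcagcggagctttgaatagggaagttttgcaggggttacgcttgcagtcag
Egr1 held 2 CArG boxes, Klf6 held 1, and Dnajb1 held 2 copies of GAANNTTC. Of all 33469 promoter windows, 1.64% held a CArG box and 8.59% held GAANNTTC. The windows of Hspa1a, Id3 and Junb held none of the motifs, and that of Id1 held 1 GAANNTTC. A match describes the letters of these windows and is no evidence of binding.

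All signals below are the deposited intensities on a linear scale, and signals below 129.5 lie in the dimmest 40% of all values and were treated as that floor. The table holds 8740 probe sets beside 59 controls, and 6707 of them exceeded the floor on at least 4 arrays and were tested. They stand for 3903 genes, each represented by its brightest probe set. On the 8 arrays 37.3% to 43.5% of the values lay at the floor. Skeletal muscle markers were abundant: the summed signal of 15 fibre identity genes ran from 235204 to 272938 on the control arrays, from 226835 to 261844 in exercised number 1 and from 153667 to 170636 in exercised number 2.

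Some arrays stood apart from their partners. Probe sets that separate polysomal from total RNA at 6 h, on other arrays of the series, were used to place each array: 253 were higher and 335 lower in polysomal RNA. The median of the former minus that of the latter was 1.87 to 2.31 on the log2 scale on the 4 exercised arrays and 2.06, 2.26 and 2.41 on control arrays 1bA, 1aA and 2aA. On control array 2bA it was 0.60, within the range of the total RNA arrays (0.11 to 1.07) and below every other polysomal array (1.87 to 3.38). With the probe sets chosen without number 3 of the 6 h total RNA, whose actin probe sets had a 3′ to 5′ ratio of 9.01 and 11.5, the value of control array 2bA was 0.66. The actin ratio of control array 2bA was 1.07, against 1.99 to 2.73 on the other 3 control arrays, 2 and 2.44 in exercised number 1 and 4.28 and 3.59 in exercised number 2. The same ratio for GAPDH was 0.513 on control array 2bA and 0.639 to 1.02 on the other 3. It was 1.28 and 1.15 in exercised number 1 and 1.19 and 1.3 in number 2, so it did not separate the exercised numbers. The part of these differences between arrays in the results was not tested.

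**Figure D1:**
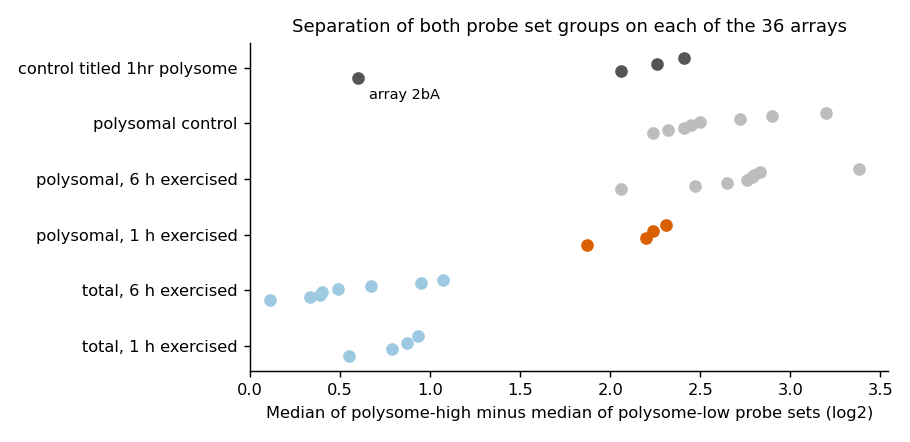
Each point is 1 of the 36 arrays; the horizontal axis is the median log2 signal of 253 probe sets higher in polysomal RNA at 6 h minus that of 335 lower ones. The 6 h total and polysomal arrays chose these probe sets; control array 2bA, at 0.60, lies among the total RNA arrays and apart from the 3 other arrays of its group.

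The correlation of log2 signals between the 2 arrays of a number was 0.946 and 0.954 in exercised numbers 1 and 2, 0.963 in control number 1 and 0.897 in control number 2. Array 2aA of exercised number 2 read 60 probe sets more than 4-fold below its partner where the partner exceeded a signal of 1000, and array 1aA of number 1 had 47 such probe sets. Control arrays 2aA and 2bA had 86 and 62, and the other 4 arrays of the comparison had 1 to 11. On the 28 arrays outside the comparison the number ran from 0 to 30. Values without such an array are given beside the results that rest most on it.

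Both exercised numbers together were first set against both control numbers, which asks what polysomal RNA held 1 h after contractions beyond the spread between replicates. The pooled spread includes the 6 h total RNA, whose number 3 lay over 2-fold from numbers 1 and 2 at 29.1% and 29.3% of probe sets. Between the control numbers of this comparison that share was 4%. No probe set passed limma's test (0 of 6707, 0.00%); 299 had an unadjusted p under 0.05, and 335 would by chance alone. The lowest Benjamini-Hochberg adjusted p was 0.646, and without control array 2bA there were also 0 calls. Without exercised number 1 there were 46 and without number 2 there were 2, which are the tests of each number apart described below. With each array as a replicate and the number as a random effect 4 passed, among them Actc1, Medag and S100a10 (adjusted p 0.0407, 0.0457 and 0.0141). The exercised numbers are described by their signals, together where they lay on the same side of the control and apart where they did not. Of the 3903 genes, 82 (2.10%) had all 4 exercised arrays above all 4 control arrays and 77 (1.97%) had them below. Without control array 2bA these counts were 165 (4.23%) and 170 (4.36%).

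Hspa1a, the inducible Hsp70 chaperone, read 7299 and 5480 in exercised number 1 and 5416 and 4605 in number 2. Its control arrays read 887, 816, 410 and 489. All 4 exercised arrays thus lay far above the control, and the numbers resembled each other. The difference was 3.19 on the log2 scale (SE 0.72, group means 12.46 ± 0.24 and 9.27 ± 0.65, SD, n = 2 numbers each), or 9.1-fold, at a limma adjusted p of 0.646.

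Ppp1r15a, which directs a phosphatase to the initiation factor eIF2 and so restores translation after stress, read 5803 and 4349 in number 1 and 3789 and 2630 in number 2. Its control arrays read 239, 1488, 1171 and 1012, so the groups did not overlap (log2 difference 2.30, SE 0.63, limma adjusted p = 0.719). Junb, an AP-1 subunit, read 1678 and 1847 in number 1, 1353 and 886 in number 2 and 159 to 556 on the control arrays. For Junb too every exercised array lay above the control, although arrays of number 2 differed from each other. Klf6 read 1626 and 990 in number 1 and 2603 and 1728 in number 2, against 726, 267, 655 and 99.4; control array 2bA, the lowest, lay under the floor. In number 1 its log2 difference from the control was 1.83, 1.24 without control array 2bA and 0.06 against the polysomal control, another control group of the series.

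The Id proteins, inhibitors of basic helix-loop-helix factors such as MyoD, were higher on every exercised array. Id1 read 2152 to 3984 on the exercised arrays and 702 to 1434 on the control arrays, and Id3 read 1663 to 2723 against 201 to 1271. The size of the difference depended on the processing and the control. Over the alternative settings the log2 difference of both numbers together ran from 0.57 to 1.70 for Id1 and from 0.40 to 2.29 for Id3. Medag, a gene linked to adipocyte formation, had almost the same signal on all 4 exercised arrays, 971 to 1027, and 250 to 510 in the control. The chemokine Ccl2, which attracts monocytes, read 836 and 733 in number 1 and 1537 and 1598 in number 2, and its control arrays lay at 127 to 244, near the floor. Il1b, which encodes interleukin-1 beta, read 269 to 420 against 135 to 205. None of these genes passed the test in both numbers together, with limma adjusted p from 0.646 for Id3 and Medag to 1 for Ccl2.

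Among genes that lay lower on all exercised arrays, Actc1, the cardiac alpha actin that skeletal muscle also makes, had a wide gap. It read 642 and 1301 in number 1 and 2998 and 3327 in number 2, against 19542, 20169, 19709 and 12875 in the control. The log2 difference was -3.39 (SE 0.97, limma adjusted p = 0.737), and on the 8 arrays of the polysomal control its signal ran from 3107 to 22304 around a median of 16450. Kif13a, a kinesin motor, read 113 and 457 in number 1 and 527 and 479 in number 2 against 973, 1006, 1137 and 601, and the low value of array 1aA lay under the floor. Its log2 difference was -1.37, -0.92 without that array and -0.32 against the polysomal control. The endosomal adaptor Tom1l2 read 613 and 2578 in number 1 and 2652 and 1571 in number 2 against 4497, 2932, 3444 and 2794. All 4 exercised arrays lay below the control, array 1aA the furthest (log2 difference -1.07, SE 0.24, limma adjusted p = 0.646). For Tom1l2 the difference was -0.55 without that array and -0.60 against the polysomal control.

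**Figure D2:**
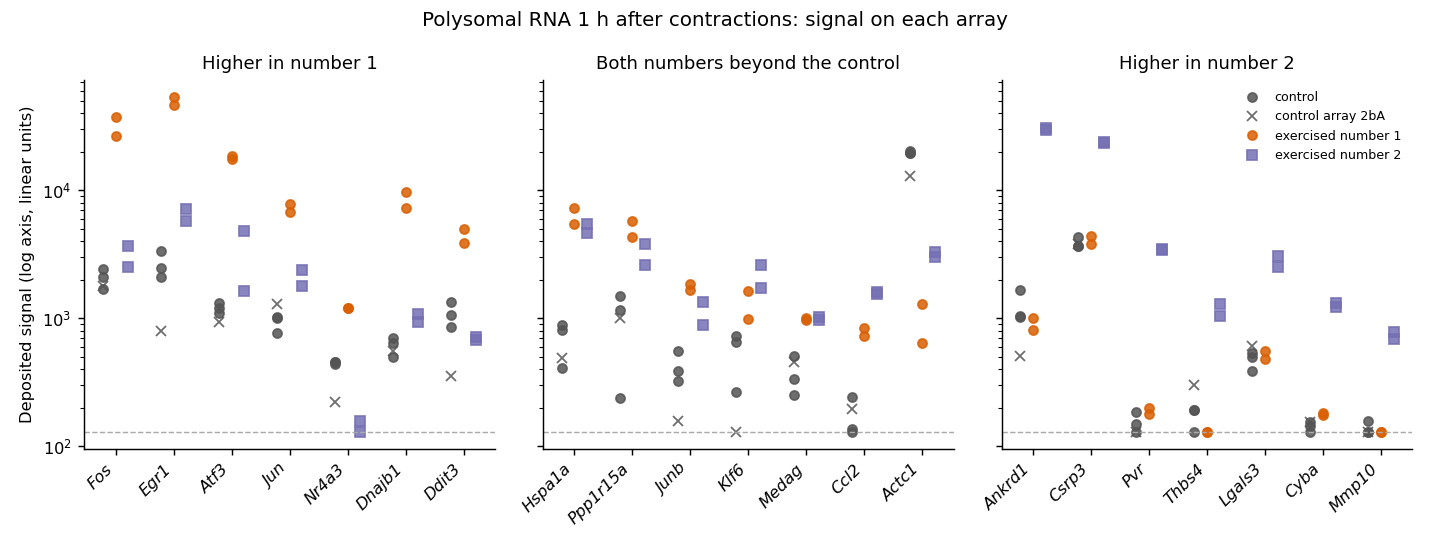
Deposited signals of 21 genes on a log axis, 1 point per array, with signals under the floor of 129.5 (dashed line) drawn at it; circles and squares are the exercised numbers, grey marks the control, and a cross is control array 2bA. Hspa1a separates from the control in both exercised numbers, Fos stands at 26481 or more in number 1 alone, and Ankrd1 at 29809 or more in number 2 while number 1 lies in the control range.

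Exercised number 1 was next set against the control alone, with the lone number assumed to vary like the replicates of the other groups. Its leading genes were immediate early transcription factors and chaperones. Fos, an AP-1 subunit, had signals of 37782 and 26481 in number 1, 3706 and 2507 in number 2 and 2430, 2092, 1708 and 1788 in the control. Egr1 read 54152 and 46560 in number 1, 7159 and 5797 in number 2 and 2472, 2115, 3365 and 792 in the control. In both genes number 1 stood far above every other array, while number 2 lay between number 1 and the control. All 4 probe sets of Egr1 were above the control in number 1, but in number 2 only 1 of the 4 was.

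The log2 difference of number 1 from the control was 4.70 for Egr1 (SE 0.95, limma adjusted p = 0.151) and 3.99 for Fos (SE 0.69, limma adjusted p = 0.0615), so neither passed. Against the polysomal control Fos passed, with an adjusted p of 0.0168, and over its 21 alternatives the value ran from 4.85e-05 to 0.449. Atf3, a stress-induced repressor, read 18678 and 17719 in number 1 and 1624 and 4832 in number 2, with 934 to 1318 in the control. Jun, the partner of Fos, read 7810 and 6835 in number 1, 2386 and 1776 in number 2 and 769 to 1299 in the control. The 2 arrays of number 1 agreed closely for both genes, whereas those of number 2 differed for Atf3.

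Dnajb1, the co-chaperone of Hsp70, read 9731 and 7321 in number 1 and 1090 and 935 in number 2, against 497 to 698. Both numbers thus exceeded the control, number 1 by 3.83 on the log2 scale (SE 1.38) and number 2 by 0.77 (SE 1.38). Ddit3 (CHOP), a transcription factor of the unfolded protein response, read 4954 and 3879 in number 1, while number 2 (675 and 718) lay within the control range of 357 to 1342. Its difference in number 1 was 2.43 (SE 0.42, limma adjusted p = 0.0615).

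Of 27 tested immediate early transcription factors, 15 had both arrays of number 1 above all control arrays and 0 below, beside 5.53% and 5.02% of all genes (9.68% and 9.33% without control array 2bA). Their median difference was 0.60 in number 1 and 0.24 in number 2, against -0.02 and -0.03 for all genes. In number 2, 13 lay above all control arrays and 3 below, beside 11.8% and 8.48% of all genes (17.4% and 14.1% without that array). The 3 were Egr4 and the orphan nuclear receptors Nr4a1 and Nr4a3. None of the 27 passed the test in either number against the control.

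In number 1 as a whole 2 of 6707 probe sets passed (0.0298%; 215 at an unadjusted p under 0.05), and neither call had the support of both arrays. Txnl1, a thioredoxin-like protein, read 127 and 2306 against 1592 to 3012 in the control, and Slc41a2, a magnesium transporter, read 612 and 89.5 against 25.3 to 132. The whole difference thus lay on array 1aA, and without it their values were 0.04 and -0.01 with another single call, the receptor subunit Chrnb4 (-1.71, limma adjusted p = 0.0349). Without array 1bA there were 84 calls, without control array 2aA 0, and without control array 2bA 3, the third being Kif13a.

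Exercised number 2 differed from the control at more probe sets. In all, 46 of 6707 passed (0.686%; 443 at an unadjusted p under 0.05), of which 24 were higher (0.358%) and 22 lower (0.328%). Of the 3903 genes, 14 were higher (0.359%) and 13 lower (0.333%). Both arrays agreed within 2-fold for 22 of the 24 higher calls, but for only 3 of the 22 lower ones. The calls numbered 24 without array 2aA (18 of the 46 among them), 120 without array 2bA and 24 without control array 2aA. Without control array 2bA there were 56, with 43 of the 46 among them.

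The highest of the risen genes was Ankrd1, an ankyrin repeat protein of the sarcomere that also acts in the nucleus. Its signals were 29809 and 30693 in number 2, 1006 and 818 in number 1 and 1661, 1039, 1023 and 507 in the control. Number 2 was 31.1-fold above the control (log2 difference 4.96, SE 0.95, limma adjusted p = 0.0329), while number 1 lay inside the control range. The call was lost without either control number, at an adjusted p of 0.103 and 0.172.

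Pvr, an adhesion receptor of the nectin family, read 3472 and 3399 in number 2 and 198 and 180 in number 1, with 2 of its 4 control arrays under the floor. With those arrays set to the floor it rose by 4.55 on the log2 scale (SE 0.73, limma adjusted p = 0.0101), which understates the difference. Lgals3, the galectin that macrophages and other cells make, read 2498 and 3054 in number 2, 482 and 553 in number 1 and 502, 532, 385 and 611 in the control. It rose by 2.46 (SE 0.37, limma adjusted p = 0.00731) and passed in each of its 21 alternatives, with an adjusted p of 1.72e-05 to 0.0496. Capg, an actin capping protein of motile cells, read 2823 and 2438 in number 2, while number 1 (732 and 616) was close to the control (503 to 727); it rose by 2.11 (SE 0.44, adjusted p = 0.0471) but passed in only 7 of 21 alternatives (adjusted p up to 0.254).

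The calcium-binding protein S100a10, the partner of annexin A2, and the intermediate filament vimentin (Vim) rose in number 2 and were above the control in number 1 as well. S100a10 read 3919 and 4424 in number 2, 1940 and 1940 in number 1 and 662 to 1151 in the control. Vim read 5460 and 4958, 3024 and 2522 and 824 to 2229 in the same order. Their log2 differences in number 2 were 2.31 (SE 0.47) and 1.75 (SE 0.37), with limma adjusted p of 0.0404 and 0.0471. Neither call held under every alternative. S100a10 passed in only 9 of its 21 alternatives, with an adjusted p of 0.296 against the polysomal control, and Vim passed in only 5 of its 21.

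Further risen genes serve the secretory pathway, steroid and retinoid metabolism or signalling. Ppib, a cyclophilin of the endoplasmic reticulum, read 3406 and 2659 against 732 to 1110 and rose by 1.65 (SE 0.25). P3h4, an endoplasmic reticulum protein needed for collagen modification, rose by 1.69 (SE 0.35) and Serp1, which stabilises membrane proteins under stress, by 1.28 (SE 0.25). Hsd11b1, which activates glucocorticoids, read 1299 and 1262 in number 2 and 703 and 714 in number 1 against 297 to 638, and rose by 1.55 (SE 0.26). For these 4 genes the limma adjusted p ran from 0.00731 for Ppib to 0.0417 for P3h4. Of 21 alternatives Ppib passed in 18, Hsd11b1 in 16 and P3h4 and Serp1 in 9 each; against the polysomal control the log2 difference was 0.30 for P3h4 and 0.44 for Ppib, and neither passed. The parathyroid hormone receptor Pth1r rose by 1.43 (SE 0.28), with 2 of its 3 probe sets in that direction, and passed in 8 of 21 alternatives (adjusted p up to 0.31).

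For 3 risen genes all control arrays lay under the floor, so their folds are bounds, set against the floor itself. Aldh1a2, which makes retinoic acid, read 389 and 375 in number 2, at least 2.95-fold higher (limma adjusted p = 0.0134). The cytokine Il18 read 530 and 383, at least 3.48-fold higher (limma adjusted p = 0.0143). Spp1, the matrix protein osteopontin, read 304 and 3229, so its arrays differed by over 4-fold. The log2 mean of both arrays lay at least 7.66-fold above the control (limma adjusted p = 0.0392). That bound does not hold for array 2aA alone, and over 20 alternatives the log2 difference ran from 1.23 to 4.64.

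Several genes stood as far from the control in number 2 without passing. Csrp3, the muscle LIM protein of the Z disc, read 23600 and 23940 in number 2, 4392 and 3803 in number 1 and 3685, 3664, 4306 and 3811 in the control. Number 2 alone left the narrow range of the other 6 arrays (log2 difference 2.62, SE 0.70, limma adjusted p = 0.162). Cyba, a subunit of the superoxide-producing NADPH oxidase, read 1322 and 1225 in number 2, 176 and 181 in number 1 and 46.2 to 156 in the control. Rrad, a small GTPase that inhibits calcium channels, read 12814 and 9491 in number 2, 644 and 460 in number 1 and 2022, 1933, 1322 and 276 in the control. The growth factor Hbegf read 828 and 938 in number 2 and 302 and 173 in number 1, and 3 of its 4 control arrays lay under the floor.

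Among the 13 genes called lower in number 2, both arrays of number 2 lay within 2-fold of each other for Srebf1 and Fxyd1. Srebf1, a transcription factor of lipid synthesis, read 140 and 163 in number 2, 618 and 399 in number 1 and 981, 779, 447 and 1318 in the control. It fell by 2.44 on the log2 scale (SE 0.35, limma adjusted p = 0.00725), but against the polysomal control, whose arrays ran from 301 to 502, the adjusted p was 0.0732. Fxyd1 (phospholemman), a regulator of the sodium pump, read 5759 and 7271 against 13056 to 17485 and fell by 1.21 on that scale (SE 0.25, adjusted p = 0.0475), a call that held in 7 of 21 alternatives (adjusted p up to 0.276).

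For the other 11 genes array 2aA lay far below array 2bA. Atp2a2, the calcium pump of slow fibres, read 54.2 and 2543 in number 2 against 3565 to 5764 in the control, and 2 of its 4 probe sets were below the control. Tnni2, the fast troponin I, read 1635 and 21604 against 26684 to 30097, and Csnk2b, a subunit of casein kinase 2, 46 and 4175 against 2923 to 6118. On array 2bA the last of these lay inside the control range. Rack1, a scaffold on the small ribosomal subunit, read 253 and 6619 against 2429 to 7151, and Myl2, the slow myosin light chain, 1275 and 10239 against 13553 to 19735. Without array 2aA the log2 difference of Rack1 was 0.31 and that of the hydrolase Lta4h 0.11, turned to the other side, and those of Atp2a2, Myl2 and Tnni2 were -0.98, -0.67 and -0.41. In all, array 2aA read more than 4-fold below array 2bA for 18 of the 22 lower calls. No fall is read from these 18 probe sets.

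**Figure D3:**
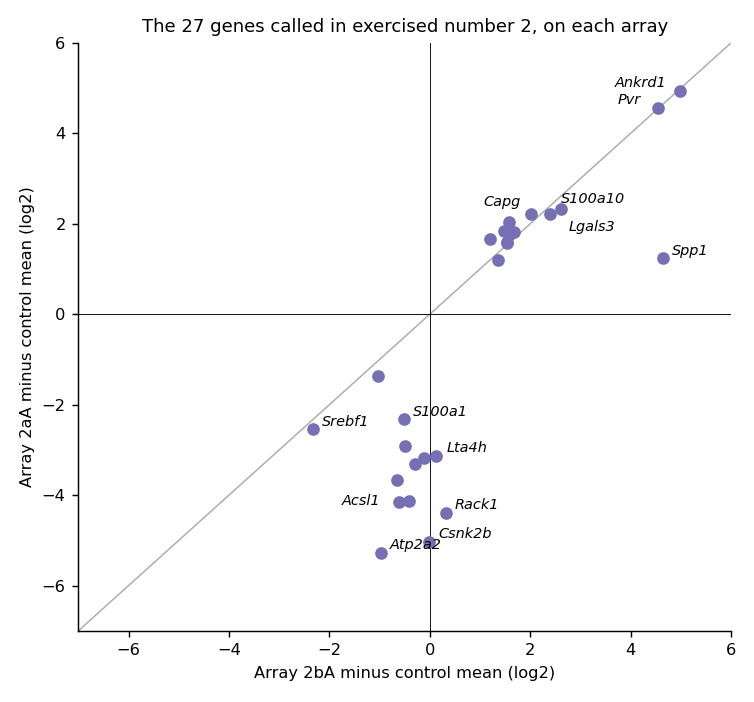
Each point is 1 of the 27 genes called in exercised number 2; the axes give the log2 difference of array 2bA (horizontal) and array 2aA (vertical) from the control mean, and the line marks equal values. The risen genes lie along the line except Spp1, while the lower ones other than Srebf1 and Fxyd1 lie far below it, closer to 0 on array 2bA than on array 2aA.

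The exercised numbers were also tested against each other. Of 6707 probe sets 29 differed (0.432%; 398 at an unadjusted p under 0.05), 9 higher (0.134%) and 20 lower (0.298%) in number 2. They included 5 genes that were higher (0.128% of 3903) and 11 that were lower (0.282%). Without array 2aA 5 passed, 4 of the 29 among them: Lgals3, Spp1, Txnl1 (whose difference rested on array 1aA), Nr4a3 and 1 probe set with no symbol. There were 123 calls without array 1bA and 89 without array 2bA. Nr4a3, an orphan nuclear receptor, read 1198 and 1199 in number 1, 159 and 129 in number 2 and 453, 452, 443 and 222 in the control, so that the numbers lay on opposite sides of it. Number 2 was lower by 8.36-fold (log2 difference -3.06, SE 0.46, limma adjusted p = 0.0092), with 2 of its 3 probe sets in that direction. Nr4a1 read 25059 and 22027 in number 1, 3458 and 4040 in number 2 and 7680 to 15905 in the control (log2 difference -2.65, SE 0.71, adjusted p = 0.21).

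Ddit3 was also lower in number 2 than in number 1, by 6.3-fold (limma adjusted p = 0.0318). Pvr, Lgals3 and Ppib were higher, with log2 differences of 4.19 (SE 0.84), 2.42 (SE 0.43) and 1.46 (SE 0.29). Of 13 alternatives Pvr passed in 7, Lgals3 in 9 and Ppib in 4. Aldh1a2 lay under the floor in number 1 and was at least 2.95-fold higher in number 2 (limma adjusted p = 0.0428). The matrix protein Thbs4 lay under the floor on both arrays of number 1 and at 1047 and 1285 in number 2, at least 8.96-fold apart. The myogenic factor Myog also lay under the floor in number 1 and read 787 and 1517 in number 2, at least 8.44-fold apart, with 158 to 589 in the control. The protease Mmp10 read 776 and 684 in number 2 and lay under the floor in number 1, at least 5.62-fold apart. Plin2, the lipid droplet coat, read 158 and 872 in number 1 and 1950 and 2553 in number 2. None of these last 4 passed, nor did Ankrd1 (log2 difference 5.06, SE 1.10, adjusted p = 0.0716) or Fos (-3.38, SE 0.79, adjusted p = 0.105).

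**Figure D4:**
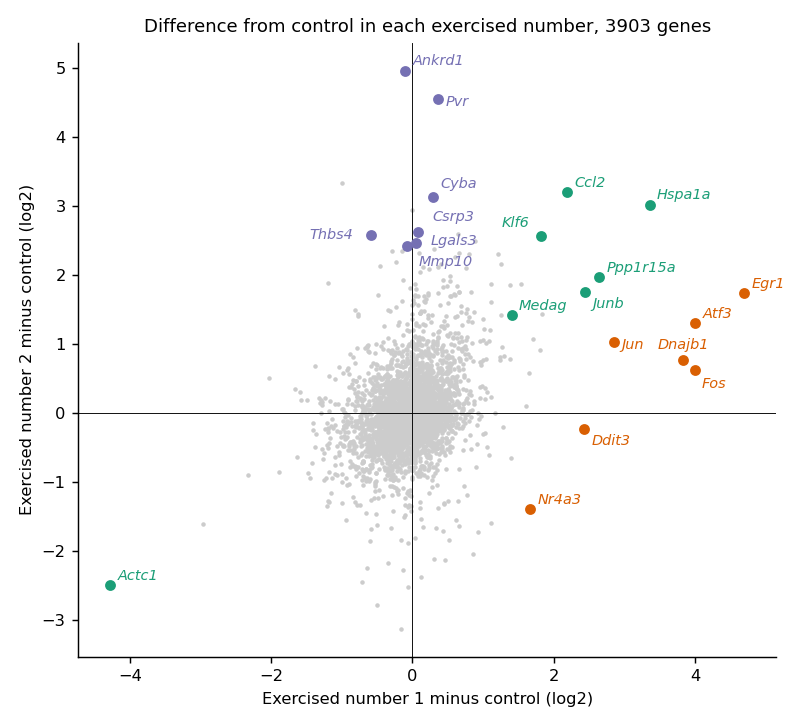
Log2 difference from the control of exercised number 1 (horizontal) and number 2 (vertical) for 3903 genes, with the genes of the signal plot in colour; both axes use the same control arrays, which alone gives points a common tilt. Ankrd1 and Pvr lie near 0 for number 1 and above 4 for number 2, and Hspa1a lies near 3 for both.

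The total RNA of exercised muscle at 1 h carries the same numbers, although the labels do not say that a number means the same muscle. Ankrd1 read 4153 and 5158 in total RNA of number 1 and 16925 and 21397 of number 2. In the same order Csrp3 read 4076 and 6357, then 11989 and 12950, and Pvr read 199 and 184, then 811 and 729. For these 3 genes number 2 was the higher in total RNA too. Fos read 28698 and 24514 in total RNA of number 1 and 17203 and 17251 of number 2, Egr1 read 31747 and 33644, then 21920 and 28101, and Ddit3 read 1554 and 1493, then 1383 and 1744. These 3 genes lay closer together in total RNA than in polysomal RNA. Cyba read 167 and 119, then 142 and 132, and Lgals3 read 715 and 695, then 604 and 484, so in neither did number 2 stand above both arrays of number 1 in total RNA. Over the 6707 probe sets the difference between numbers in polysomal RNA had r = 0.20 with that in total RNA and 0.10 with that between the control numbers; probe sets are not independent replicates. More than 2-fold apart between numbers were 521 probe sets (7.77%) in exercised polysomal RNA, 214 (3.19%) in total RNA and 268 (4%) in the control.

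The gene lists were described by their counts and medians, beside all genes tested. Heat shock and folding genes (23 tested) had 4 members above all control arrays in number 1 and 1 below (5.53% and 5.02% of all genes), with the small heat shock protein Hspb1 beside Hspa1a, Dnaja1 and Dnajb1. In number 2 there were 8 above and 1 below (11.8% and 8.48% of all genes), among the former the endoplasmic reticulum chaperones Hspa5, Canx, Pdia3, Pdia6 and Serpinh1. Hspb1 read 50390 and 43951 in number 1, 12103 and 17584 in number 2 and 32003, 27589, 17181 and 15852 in the control, so that number 1 lay above every control array, while number 2 had 1 array below the control and 1 inside its range. Hspa5 (BiP) read 1652 and 1266 in number 1, 4085 and 3791 in number 2 and 1782, 1960, 2672 and 1494 in the control. None of the 23 passed in any of these comparisons. Of 21 early feedback regulators of signalling, 6 lay above all control arrays in number 1 (5.53% of all genes) and 5 in number 2 (11.8%), and none passed.

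Inflammation genes (33 tested) had 16 members above all control arrays in number 2 (11.8% of all genes) and 8 in number 1 (5.53%), and 1 below in each, with medians of 0.72 and 0.11. In number 2, S100a10 and Il18 rose. Plaur, the urokinase receptor, read 517 and 281 in number 1, 764 and 659 in number 2 and 104 to 175 in the control. Anxa1, an annexin that limits inflammation, read 261 and 386, 666 and 729 and 175 to 253 in the same order. Of 15 macrophage markers, 7 lay above all control arrays in number 2 (11.8% of all genes) and 2 in number 1 (5.53%), and their summed signal was 19445 to 19990 in number 2, 10237 to 11427 in number 1 and 8427 to 11577 in the control. On the polysomal control arrays that sum reached 10219 to 16427. Cd74, a chaperone of class II antigen presentation, read 1968 and 2099 in number 1, 3420 and 2395 in number 2 and 743 to 1358 in the control; the integrin Itgam lay under the floor on all 8 arrays. Neutrophil and mast cell markers (8 tested) summed to 3225 to 3779 in number 2, 2293 to 2657 in number 1 and 1793 to 2257 in the control. Their sum on the polysomal control arrays was 1978 to 3238, which reached the range of number 2. The part of these cells in the higher inflammation genes was not tested.

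Extracellular matrix genes (36 tested) had medians of 0.15 in number 1 and 0.62 in number 2, where 17 members lay above all control arrays and 1 below (11.8% and 8.48% of all genes). Spp1 alone passed there, and its arrays in number 2 differed by over 4-fold. Loxl1, a collagen and elastin crosslinking enzyme, read 861 and 970 in number 1, 3011 and 2226 in number 2 and 269 to 818 in the control. Mgp, the matrix Gla protein, read 7804 and 6428, 16054 and 14305 and 2893 to 7896 in the same order, yet on the polysomal control arrays it reached 8949 to 16871. With that control the median of the list in number 2 was 0.10.

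Genes of the slow fibre sarcomere and calcium handling (11 tested) had medians of -0.35 in number 1 and -1.13 in number 2, and 8 of them lay below and 1 above all control arrays in number 2 (8.48% and 11.8% of all genes). Their 2 calls in number 2, Myl2 and Atp2a2, rested on array 2aA. Myh7, the slow myosin heavy chain, read 2401 and 2412 in number 1, 1881 and 2011 in number 2 and 2879, 3507, 4120 and 12673 in the control, whose array 2bA stood alone at the top. Tnni1, the slow troponin I, read 2246 and 2370 and 1456 and 2187 against 4402, 4772, 3074 and 4626, with no overlap (log2 difference -1.03, SE 0.37, limma adjusted p = 0.99). Without control array 2bA the median of the list in number 2 was -0.94, and against the polysomal control it was -0.48. Fast fibre genes (20 tested) had a median of -0.58 in number 2, which was 0.05 against the polysomal control. The fibre identity genes went from -0.57 to 0.25 in the same way, so the direction of both depended on the control.

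Of 46 nuclear-encoded respiratory chain genes, 30 had both arrays of number 2 below both arrays of number 1 (17.2% of all genes did) and 1 had them above. Against the control, 15 lay below all control arrays in number 2, beside 8.48% of all genes. In number 1 there were 3, and that count alone is near the share of all genes (5.02%). None passed in any of these comparisons. The medians against the control were 0.05 in number 1 and -0.32 in number 2, and -0.18 and -0.60 without control array 2bA. Glycolysis and glycogen genes (24 tested) had medians of -0.09 and -0.44. Both arrays of number 2 lay below both arrays of number 1 for 11 members and above them for 6. Fuel switching and lipid genes (30 tested) had 9 below and 7 above in the same way. Of all 3903 genes, 673 (17.2%) lay below and 854 above. In the fuel list 1 gene passed, the acyl-CoA synthetase Acsl1, which read 308 and 3560 in number 2. Its log2 difference from the control was -4.15 on array 2aA and -0.61 on array 2bA, so the call rested on array 2aA. Pgk1, a glycolytic kinase, read 9239 and 28942 in number 1 and 9785 and 19690 in number 2 against 27471, 26468, 21474 and 25273, so the a and b arrays of each exercised number disagreed. Its log2 difference in both numbers together was -0.73, -0.32 without array 1aA and -0.48 without array 2aA.

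Ribosomal protein genes (38 tested) had medians of 0.29 in number 1 and 0.21 in number 2, and 13 and 7 members lay above all control arrays (5.53% and 11.8% of all genes), with 0 and 2 below. Rpl35a read 9224 and 8422 in number 1, 9948 and 10934 in number 2 and 3280, 6661, 7900 and 5245 in the control. The single call of the list in number 2, Rack1, rested on array 2aA, as did Rpl39 between the numbers (280 and 6275 in number 2; log2 difference -2.31, and -0.06 without that array). Translation factors (26 tested) had medians of -0.18 and -0.02, proteolysis genes (40 tested) -0.11 and 0.17, and none of either list passed. The ribosome rescue factor Pelo read 166 and 630 in number 1, 1373 and 886 in number 2 and 178 to 518 in the control.

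**Figure D5:**
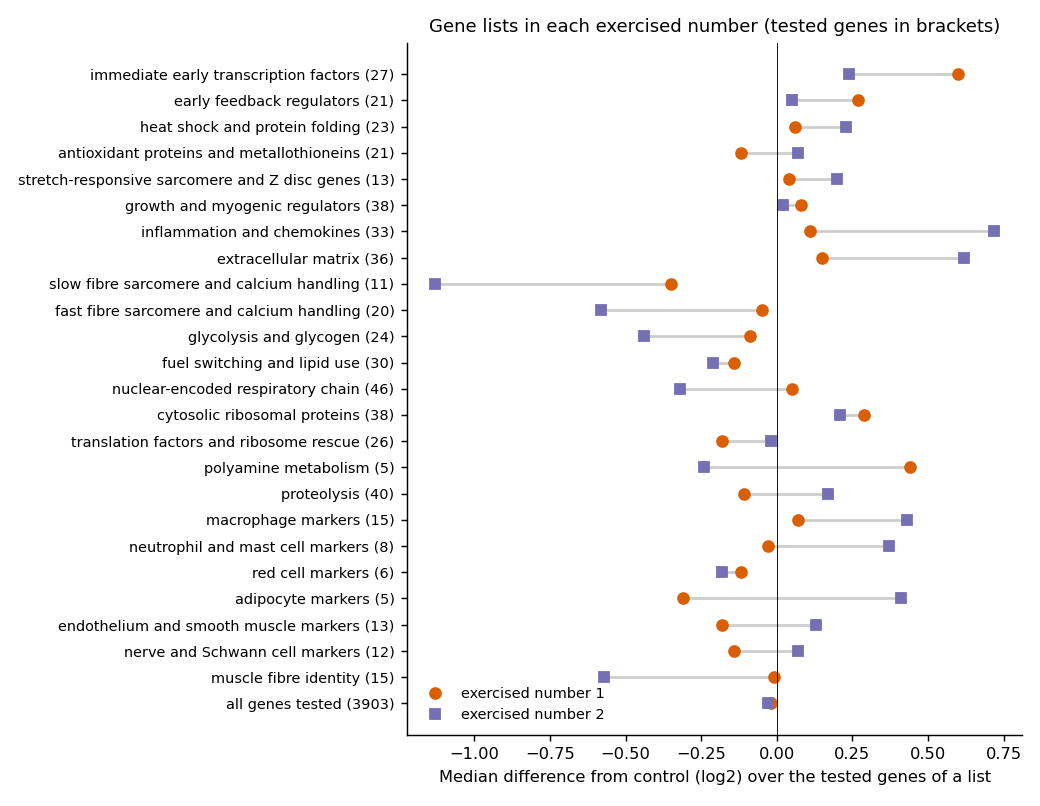
Median log2 difference from the control over the tested genes of each list, circles for exercised number 1 and squares for number 2, with the number of tested genes in brackets; all genes are in the bottom line. The immediate early list is the highest in number 1 (0.60), and in number 2 the slow fibre list is the lowest (-1.13) and the inflammation list the highest (0.72).

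The response at 1 h was finally set beside that at 6 h, which used other exercised arrays and the polysomal control and so shares no array with it. No probe set passed limma's test for a difference between the 2 responses, with the numbers of each group combined (0 of 6707, 0.00%, and 173 at an unadjusted p under 0.05). Without exercised number 1 of the 1 h group 17 passed. Of the 24 probe sets that rose in exercised number 2, 19 were above 0 at 6 h (79.2%, against 40.9% of all probe sets), with a median of 0.46. Of the 22 lower calls 8 were above 0 (36.4%), with a median of -0.08. Ankrd1 differed at 6 h by 4.52 (SE 0.84) on the log2 scale, beside its value of 4.96 in number 2 at 1 h. Pvr lay under the floor on all arrays of the polysomal control and at 1476 to 2942 on the exercised arrays at 6 h. Ddit3, high in number 1, was at 0.30 (SE 0.42) at 6 h.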

How the data were processed

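Per the labels, each array was hybridised with labelled RNA from rat skeletal muscle. The values deposited by the authors are intensity signals, linear values for every probe set on every array, with a trimmed mean (2% at each end) of 801 to 801.9 on every array; the software that made them is not given in the sources used here. Signals under 129.5, the 40th percentile, were set to it and log2 was taken. The test took probe sets above it on 4 or more arrays. Log2 values of the 2 arrays that share a number were averaged, giving 18 replicates, and fitted with limma 3.58.1 in R 4.3.3 (lmFit, eBayes; Benjamini-Hochberg, threshold 0.05), with all 6 groups in the fit and 12 residual degrees of freedom, or 11 with the exercised numbers as groups of their own. The scripts were tested on simulated data.

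A gene is its brightest probe set; 7006 probe sets had 1 symbol, 308 several and 1426 none. Named genes were the 12 leading ones in each direction of each comparison and the 4 leading members of each list; Canx, Chrnb4, Egr4, Hspa5, Hspb1, Itgam, Pdia6 and Serpinh1 were picked once their values had been seen. The comparisons and gene lists were chosen with earlier results of these data known. The numbers 1 and 2 occur in both groups, but nothing in the labels ties them to each other. The number of arrays limits the precision.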

Additional observations from a re-analysis of the deposited data

How the results depend on the processing

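With both exercised numbers together no probe set passed in the fit with the replicate block (0 calls); with arrays as replicates and the number as a random effect 4 passed, and leaving out one replicate gave 0 to 46. The numbers share only a label. For the difference between the responses at 1 h and 6 h the replicate block also gave 0 calls, and leave-one-out gave 0 to 17. For number 1 against the control the calls were 0 with the 25th percentile as the floor, 0 with log2(signal + 32), 45 with no filter on dim probe sets, 11 with the array random effect, 1 with the mean of linear signals, 4 with trend and robust eBayes, 8 with the polysomal control and 6 with both controls pooled; leave-one-out gave 0 to 84. For number 2 against the control they were 24 with log2(signal + 32) and 20 with linear means, and leave-one-out gave 13 to 120. For number 2 against number 1 they were 18 with log2(signal + 32), 92 with no filter and 8 with linear means, and leave-one-out gave 5 to 123. Leaving out probe sets with arrays over 4-fold apart, an alternative chosen after seeing the data, gave 0 calls for number 1, 14 for number 2 and 0 between the numbers. Of 107 single gene results, 6 changed direction: Fstl1 with both numbers against the polysomal control (-0.07), and 5 on leaving out 1 array. In number 1 Txnl1 ranged from -4.12 to 0.04 and Slc41a2 from -0.01 to 2.23, in number 2 Rack1 ranged from -4.40 to 0.31 and Lta4h from -3.13 to 0.11, and between the numbers Csnk2b ranged from -4.96 to 0.05. Array 1aA decided the former pair and array 2aA the others. The cause was not tested except where an alternative removes arrays or probe sets. Control array 2bA, near the total RNA arrays, and the label without polysomes limit what the control stands for.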
